A study of Mus musculus with 7 samples.

Results

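The choroid plexus genes described here are 9 of the 19257 genes that could be named in a table of normalized counts from bulk RNA-Seq of mouse brain tumors: Ttr, Otx2, Folr1, Prlr, Clic6, Slc4a5, Aqp1, Enpp2 and Sostdc1. They were picked by gene symbol, as genes that mark the epithelium of the choroid plexus, after a high count of Ttr in 1 of the 7 libraries had been seen. The level of Ttr in that library is therefore a description and supports nothing further. All 9 were in the table, and all 9 passed the filter of the group comparison, a mean normalized count of at least 10 over the 7 libraries. Otx2 and Slc4a5 passed only with that library (GPC6-1) counted, since their means over the other libraries were below 10.

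The choroid plexus is a folded sheet of epithelium in the ventricles of the brain that secretes the cerebrospinal fluid. Its epithelial cells carry ion transporters and water channels, take up vitamins and hormones from the blood, and release carrier proteins into the fluid, of which transthyretin, the product of Ttr, is the best known. The transcription factor OTX2 is needed to form and keep this epithelium. Outside the brain, transthyretin is also made in the liver, and OTX2 and transthyretin are also found in the retinal pigment epithelium.

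The 3 libraries of the 3xCR group (replicates 2, 3 and 4, of control genotype by their labels) came from tumors made by electroporating embryos in utero with 1 construct that carried Cas9 and guides against tumor suppressors, which include Trp53 and Nf1. The 4 libraries of the GPC6 group (replicates 1 to 4) came from tumors that had the same construct and also overexpressed the cell-surface glypican GPC6 from a piggyBac transposon. Plasmids were injected into the lateral ventricles of the embryos and entered the progenitor cells that line them, and piggyBac also supplied a GFP reporter. At the endpoint, tumor tissue was taken from the brain under a fluorescence microscope. The labels describe the tissue as brain and the cells as neural, and they give neither the age of each animal nor the part of the brain sampled. No tumor-free brain and no dissected choroid plexus is among the 7 libraries, so that a normal level of these genes is not analysed here. Each library holds RNA of every cell type in the dissected piece, and a smaller share of choroid plexus cells cannot be told apart from less RNA of these genes per cell.

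The libraries held between 7197692 (GPC6-1) and 18879762 (3xCR-2) reads on genes. A count of 0 allows up to 3 reads, which is 1.64 to 4.64 normalized counts depending on the library, and floors and intervals cover counting error only. Gpc6, the overexpressed gene, was measured at 217, 226 and 126 normalized counts in 3xCR-2, -3 and -4, and at 675, 263, 3434 and 5084 in GPC6-1, -2, -3 and -4. The library labelled GPC6-2 thus lay near the 3xCR level of Gpc6. GPC6-1, the library with the most Ttr, held 39181 normalized counts of 5 pan-neuronal genes against 1953 to 17211 in the other 6 libraries, and 470 of 6 proliferation genes against 3814 to 10792. Snap25, the most abundant of the neuronal genes, was at 20138 there against 126 to 7469, and Top2a, the most abundant of the proliferation genes, at 145 against 1255 to 5412.

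Ttr encodes transthyretin, which binds thyroid hormone and the retinol carrier of the blood and lies on chromosome 18. Its normalized counts in 3xCR-2, -3 and -4 were 129, 3240 and 1840, so that the group averaged 1736 ± 1558 (SD, n = 3). GPC6-1 reached 11813, whereas GPC6-2, -3 and -4 held 10.9, 31.9 and 20.6, and the group mean was 2969 ± 5896 (SD, n = 4). Ttr was high in 1 GPC6 library and in 2 of the 3xCR libraries and low in the other 3 GPC6 libraries, with 3xCR-2 between them, so that the groups overlapped. The reads behind these values numbered 7643 in GPC6-1, 3483 in 3xCR-3, 1332 in 3xCR-4 and 235 in 3xCR-2, but 11, 36 and 20 in GPC6-2, -3 and -4. GPC6-1 held 1062 reads of Ttr per 1000000 reads on genes (95% exact binomial interval 1038 to 1086), and GPC6-2 held 1.04 (0.520 to 1.86). From the lowest to the highest library, Ttr spanned a factor of 1087, although 11 reads set the lower end.

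Otx2 encodes the homeobox transcription factor of the epithelium (GRCm38, chr14:48657677-48673819, minus strand). It was measured at 10.4, 26.0 and 12.4 normalized counts in 3xCR-2, -3 and -4 and at 57.2, 0, 10.6 and 0 in GPC6-1, -2, -3 and -4. GPC6-1 was again the highest library and 3xCR-3 the next, while no read was found in GPC6-2 and GPC6-4. No library had more than 37 reads of Otx2, so that its low values rest on few reads. In the annotation, Otx2 shares 154 exon bases with Otx2os1 on the opposite strand and 168 with Gm49154 on its own strand, and whether counting used the strand is not given in the sources used here.

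The receptors among the members are Folr1, which carries folate across the epithelium, and Prlr, the prolactin receptor. Folr1 (chr7:101858331-101870788, minus strand) was measured at 3.84, 113 and 30.4 normalized counts in 3xCR-2, -3 and -4 and at 148, 0, 8.87 and 1.03 in GPC6-1, -2, -3 and -4. Prlr (chr15:10177238-10349180, plus strand) was measured at 11.5, 38.1 and 27.6 in 3xCR-2, -3 and -4 and at 95.8, 0.988, 5.32 and 0 in GPC6-1, -2, -3 and -4. For both receptors GPC6-1 lay above all 3xCR libraries and GPC6-2 and GPC6-4 lay below all of them, with 0 or 1 read each in those 2 libraries. Prlr shares 203 exon bases with the overlapping gene model Gm21973, so that the split of its reads is uncertain.

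Of the ion transporters, Clic6, which encodes a chloride intracellular channel protein (chr16:92485736-92541243, plus strand), was measured at 26.3, 201 and 38.7 normalized counts in 3xCR-2, -3 and -4 and at 349, 29.6, 29.3 and 5.14 in GPC6-1, -2, -3 and -4. Slc4a5, a sodium bicarbonate cotransporter of the apical membrane (chr6:83219828-83304945, plus strand), was measured at 3.84, 47.4 and 5.52 in 3xCR-2, -3 and -4 and at 102, 0, 0.887 and 0 in GPC6-1, -2, -3 and -4. Both genes had their 2 highest libraries in GPC6-1 and 3xCR-3. Clic6 was at a similar level in 3xCR-2, GPC6-2 and GPC6-3, where it had 48, 30 and 33 reads, whereas Slc4a5 had at most 1 read in each of the 3 low GPC6 libraries.

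Sostdc1 encodes a secreted antagonist of BMP and Wnt signaling (chr12:36314139-36318452, plus strand). It was measured at 7.13, 68.8 and 81.5 normalized counts in 3xCR-2, -3 and -4 and at 49.5, 8.89, 8.87 and 5.14 in GPC6-1, -2, -3 and -4. The 3 libraries high in Ttr were also the 3 highest in Sostdc1, but here 3xCR-4 led and GPC6-1 came last of them.

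The other two members, Aqp1 and Enpp2, followed another order. Aqp1, the water channel of the apical membrane (chr6:55336432-55348555, plus strand), was measured at 22.5, 56.7 and 1689 normalized counts in 3xCR-2, -3 and -4 and at 44.8, 327, 30.2 and 32.9 in GPC6-1, -2, -3 and -4. Its highest library was 3xCR-4, 5.17 times the next, GPC6-2, and in GPC6-1 it was no higher than in 3xCR-3. Enpp2 encodes autotaxin, a secreted enzyme that makes lysophosphatidic acid and is also made by oligodendrocytes (chr15:54838901-54952892, minus strand). It was measured at 3983, 4937 and 2355 in 3xCR-2, -3 and -4 and at 8700, 5634, 2185 and 5411 in GPC6-1, -2, -3 and -4. Enpp2 varied by a factor of 3.98 from its lowest to its highest library, the smallest span of the 9 members, and it was abundant in all 7 libraries. It shares 345 exon bases with Gm26684 on the opposite strand.

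**Figure D1:**
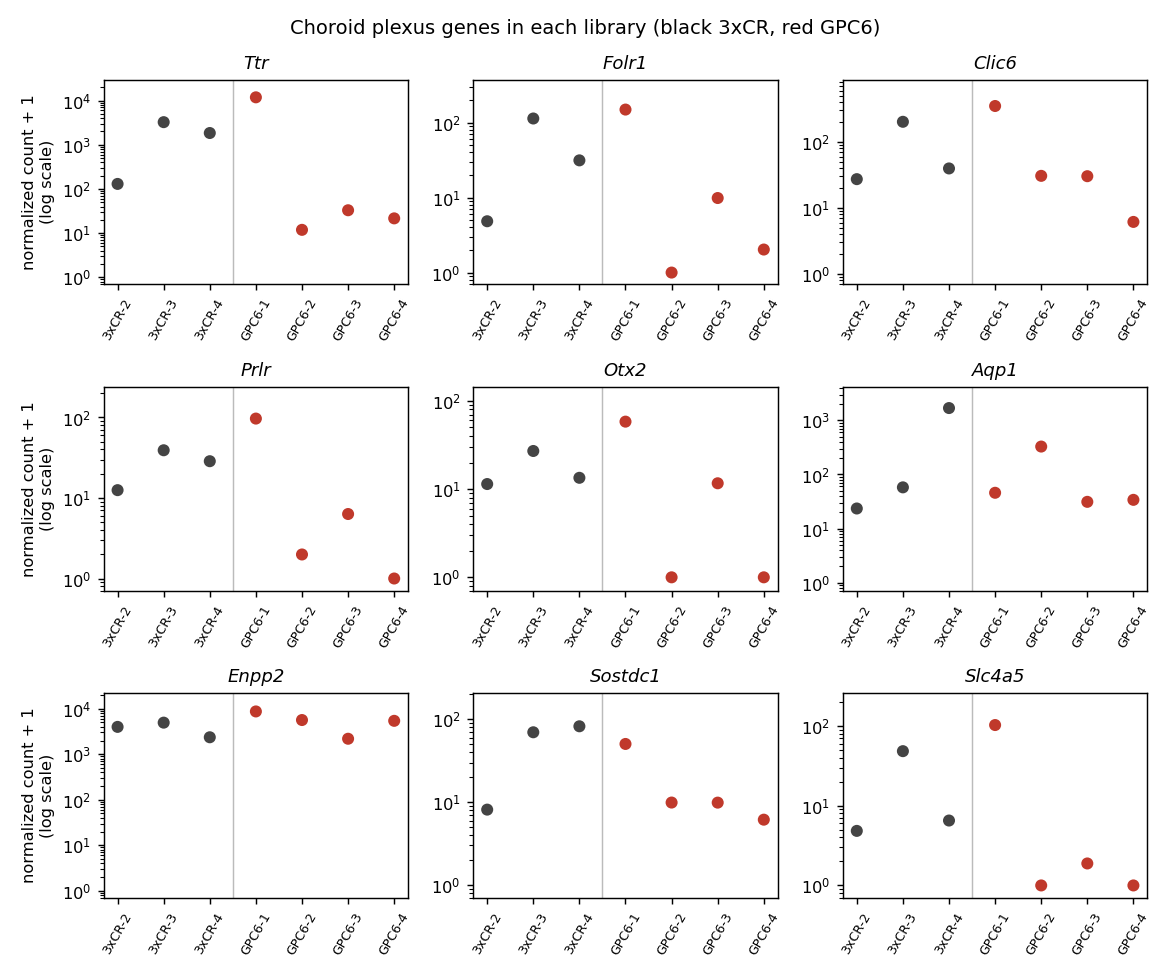
Normalized count + 1 of each of the 9 members (log scale, a scale of its own for each gene) in the 7 libraries, 1 point per library, 3xCR in black and GPC6 in red. In 7 of the 9 panels GPC6-1 is the highest point, and in the panels of Aqp1 and Sostdc1 it is 3xCR-4.

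Per kilobase of exon and per 1000000 reads on genes, which allows levels of different genes to be compared, Ttr was the most abundant member in GPC6-1 at 895, in 3xCR-3 at 259 and in 3xCR-4 at 135. In 3xCR-2 and in GPC6-2, -3 and -4 it was at 10.5, 0.878, 2.68 and 1.71, and Enpp2 led the members there with 66.6, 93.4, 37.6 and 92.1. Aqp1 reached 55.9 in 3xCR-4 and 11.9 in GPC6-2 and lay between 0.827 and 2.05 elsewhere. The other 6 members stayed at or below 8.02 on this scale in every library, the highest being Clic6 in GPC6-1.

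GPC6-1 was the highest library for 7 of the 9 members (6 of 8 without Ttr) and 3xCR-4 for 2. The height of Ttr in GPC6-1 was known when the members were chosen, so these counts are a description. Over all 14782 genes tested, 31.3% had their highest value in GPC6-1, 23.9% in 3xCR-4 and 5.26% in 3xCR-3. 3xCR-3, 3xCR-4 and GPC6-1 were each among the 3 highest libraries for 8 of the 9 members, whereas GPC6-4 was among the 3 lowest for 8 and GPC6-3 for 7. Summed over the 6 members other than Ttr, Enpp2 and Aqp1, the normalized counts were 63.0, 494 and 196 in 3xCR-2, -3 and -4 and 802, 39.5, 63.9 and 11.3 in GPC6-1, -2, -3 and -4.

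The 7 libraries form 21 pairs, and each pair was checked for whether a member ordered it as Ttr did, as a description over libraries that share all members. Folr1, Prlr and Slc4a5 followed the order of Ttr in 20 pairs, Otx2 in 19, Clic6 in 17 and Sostdc1 in 14. Enpp2 did so in 11 and Aqp1 in 10. Likeness was also measured as the root mean square difference of log2(normalized count + 1), after the mean of each gene over the 7 libraries was subtracted. By this measure, among 14781 genes ranked against Ttr, Folr1 was in place 1, Slc4a5 in place 2, Prlr in place 4, Otx2 in place 10, Clic6 in place 19 and Sostdc1 in place 24. Enpp2 was in place 3600 and Aqp1 in place 12820. The measure reads the size of a swing as well as its direction, and Enpp2, which swung little, therefore differs from Ttr by 3.57 log2 units and Folr1 by 1.46. The value of Ttr in GPC6-1, known when the members were chosen, enters this measure. The places are therefore a description, and the ranking was not repeated without GPC6-1.

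The 10 genes outside the members nearest to Ttr were Tmem72, Cldn2, Col8a2, Epn3, Wfdc2, Eppk1, Tmem212, Drc7, Kl and Krt18, at 1.62 to 2.27 log2 units. Tmem72, Epn3, Eppk1, Tmem212 and Krt18 passed the filter for ranking only with GPC6-1 counted. The filter thus favored genes high in that library, and the list is a description. Tmem72, Cldn2, Wfdc2, Kl and Krt18 are on a list of 26 other choroid plexus genes written by hand, and Tmem212 is on a list of ependymal genes. Tmem72, a membrane protein, was measured at 0, 43.7 and 5.52 normalized counts in 3xCR-2, -3 and -4 and at 49.5, 0, 0 and 0 in GPC6-1, -2, -3 and -4. Cldn2, a tight junction protein of the epithelium, was measured at 1.64, 54.9 and 20.7 and at 30.9, 0, 4.44 and 0 in the same libraries. Both were highest in 3xCR-3 and GPC6-1, although Cldn2 was higher in 3xCR-3 than in GPC6-1, the reverse of Ttr. Kl, which encodes Klotho, was measured at 15.9, 83.7 and 11.1 in the 3xCR libraries and at 158, 1.98, 16.0 and 4.12 in the GPC6 libraries.

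**Figure D2:**
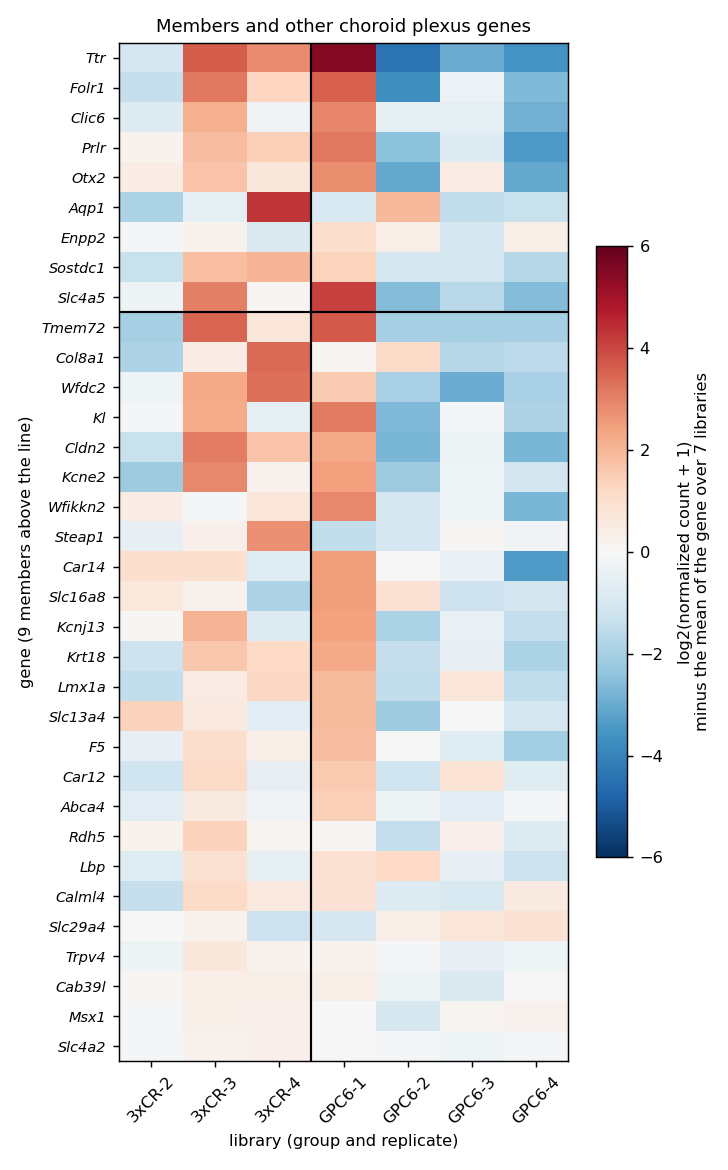
Log2(normalized count + 1) minus the mean of the gene over the 7 libraries (color, in log2 units) for the 9 members above the horizontal line and 25 other choroid plexus genes below it, with 3xCR libraries left of the vertical line. The columns of 3xCR-3 and GPC6-1 are red for most genes, while Aqp1, Col8a1 and Steap1 are reddest in 3xCR-4.

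The sequence before the start of 2 members is given so that a member that kept the order of Ttr, Prlr, can be compared with one that did not, Aqp1. The stretches are the 5′ flanks of the RefSeq starts in GRCm38.p6, both on the plus strand, Prlr at chr15:10176988-10177237 and Aqp1 at chr6:55336049-55336298, and no annotated exon overlaps them. Capitals mark CpG dinucleotides.
Prlr: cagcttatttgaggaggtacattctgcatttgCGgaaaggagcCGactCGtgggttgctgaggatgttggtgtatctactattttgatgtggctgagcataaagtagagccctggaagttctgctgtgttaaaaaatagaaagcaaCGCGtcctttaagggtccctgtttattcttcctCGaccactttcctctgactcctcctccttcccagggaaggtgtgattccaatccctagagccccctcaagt
Aqp1: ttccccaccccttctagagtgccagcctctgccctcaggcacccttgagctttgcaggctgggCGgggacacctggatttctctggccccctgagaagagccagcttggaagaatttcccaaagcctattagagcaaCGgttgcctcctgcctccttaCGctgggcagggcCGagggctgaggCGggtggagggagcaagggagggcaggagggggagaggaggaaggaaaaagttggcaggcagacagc
The Prlr stretch holds 6 CpG with a GC content of 48%, and the Aqp1 stretch 5 CpG with a GC content of 62%. Of all 32851 promoter stretches of this length, 53.7% hold no more CpG than Prlr and 49.6% no more than Aqp1. TAATCC, the core bound by OTX2, was searched on both strands and was in neither stretch, and it was in 6.25% of all stretches. Starts of 4 of the 9 members (Aqp1, Otx2, Prlr and Slc4a5) were searched, 9 starts in all, and of these 1 start of Otx2 held it. Ttr was not searched. The forkhead motif TGTTTAC, searched on both strands as well, was in 3.17% of all stretches and at 1 of the 9 member starts, a later start of Prlr. A match is only a match of letters.

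Within the 3 libraries with the most reads of Ttr, the members were set against Ttr read for read. Because the height of Ttr in GPC6-1 was known when the members were chosen, ratios in that library are a description. In 3xCR-3, 3xCR-4 and GPC6-1, Clic6 had 6.20, 2.10 and 2.96 reads per 100 reads of Ttr, and Folr1 had 3.47, 1.65 and 1.26. Prlr had 1.18, 1.5 and 0.811, and its 95% exact intervals (0.843 to 1.60, 0.914 to 2.33 and 0.621 to 1.04) overlapped in all 3 libraries. Otx2 had 0.804, 0.676 and 0.484, again with overlapping intervals. Of the 6 members other than Ttr, Aqp1 and Enpp2, Sostdc1 had the widest span, with 2.12 in 3xCR-3, 4.43 in 3xCR-4 (3.35 to 5.75) and 0.419 in GPC6-1 (0.286 to 0.592). Slc4a5 had 1.46, 0.300 and 0.864, of which the value in 3xCR-4 rests on 4 reads. Aqp1 spanned more than any of these 6, with 1.75, 91.8 and 0.379, and Enpp2 had 152, 128 and 73.6. The members did not keep 1 fixed ratio to Ttr, also between 3xCR-3 and 3xCR-4 alone, where the intervals of Clic6, Folr1, Sostdc1 and Slc4a5 did not overlap. The intervals cover counting error and not the spread between tumors.

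**Figure D3:**
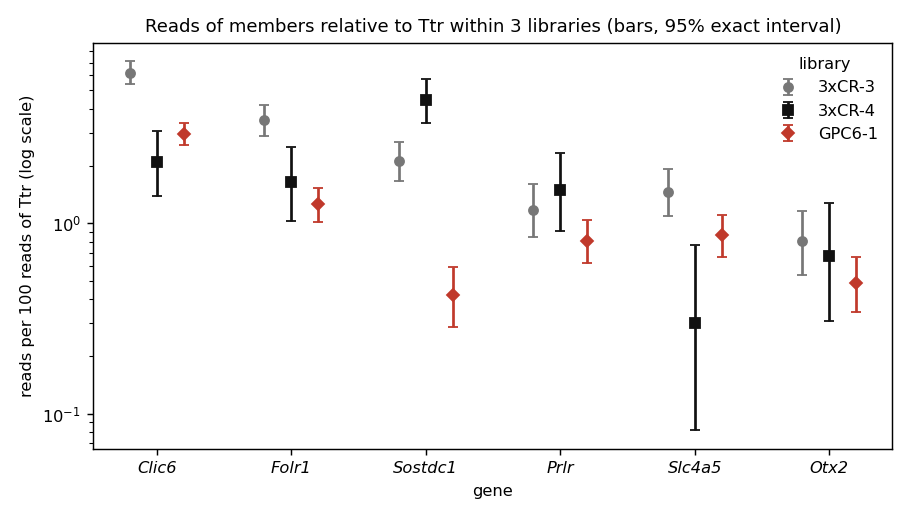
Reads of 6 members per 100 reads of Ttr (log scale) in the 3 libraries with the most reads of Ttr, with 95% exact intervals as bars. Intervals of Prlr and of Otx2 overlap across the libraries, while those of Sostdc1 lie apart, and Aqp1 and Enpp2 are not drawn.

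The 26 other choroid plexus genes were a list written by hand, of which 25 were in the table. GPC6-1 was the highest library for 12 of the 25, 3xCR-3 for 7 and 3xCR-4 for 4. The most abundant of them were Slc4a2, an anion exchanger, Cab39l and Slc29a4, a monoamine transporter, and the first 2 varied little. Slc4a2 lay between 481 and 707 normalized counts in all 7 libraries and ordered 13 of the 21 library pairs as Ttr did. Cab39l lay between 232 and 553 and ordered 18 pairs as Ttr did, more than the members Clic6 and Sostdc1, but over a far smaller range. Slc29a4 was measured at 326, 389 and 140 in 3xCR-2, -3 and -4 and at 173, 444, 555 and 610 in GPC6-1, -2, -3 and -4, so that it was low in GPC6-1 and 3xCR-4, where Ttr was high, and ordered 5 of the 21 pairs as Ttr did. Wfdc2, a secreted protease inhibitor, was at 5.48, 36.3 and 76.0 in the 3xCR libraries and at 21.6, 0.988, 0 and 1.03 in the GPC6 libraries.

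Other cells that make these genes, or that lie beside the choroid plexus, were followed with lists of their own. Liver genes were low, with 4 of the 5 in the table and a sum of 4.94 to 34.0 normalized counts per library, of which Serpina1a, the most abundant, had 12.4 in GPC6-1 and 3.95 to 27.9 elsewhere, and Apoa1 reached 20.1 in GPC6-1. Of the 4 genes of the retinal pigment epithelium, Rpe65 stayed between 0.988 and 7.73, and Rlbp1, which glia also express, made up most of the sum and was at its lowest, 107, in GPC6-1. The 10 ependymal genes, which mark the ciliated lining of the ventricles, summed to 320, 591 and 358 in 3xCR-2, -3 and -4 and to 1045, 109, 418 and 214 in GPC6-1, -2, -3 and -4. For 8 of these 10 the highest library was GPC6-1, and Foxj1, the regulator of motile cilia, was at 386 there against 51.4 to 192 in the other libraries. Tmem212 was at 0 in GPC6-2 and GPC6-4, where Otx2 was at 0 too. The 100 genes nearest to Ttr held 6 of the 8 other members, 6 of 10 ependymal genes, 8 of the 23 other choroid plexus genes tested and 2 of 8 oligodendrocyte genes (Mobp and Ermn). No gene of the fibroblast, endothelial, pan-neuronal, proliferation or hypothalamic lists was among them. The value of Ttr in GPC6-1 enters this ranking, so these counts are a description. The 10 genes of hypothalamic neurons summed to 1196 in GPC6-1 and to 16.7 to 65.6 in the others, with 9 of the 10 highest in GPC6-1, led by Avp at 541 and Oxt at 428, with Hcrt at 9.27, but in 3xCR-3 and 3xCR-4, where Ttr was high as well, Avp and Oxt had no read. The part of these cell types in the levels of the members was not tested.

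Aqp1 was set beside genes of leptomeningeal fibroblasts, and Enpp2 beside genes of mature oligodendrocytes. The 8 genes of leptomeningeal fibroblasts summed to 1144, 1367 and 28157 normalized counts in 3xCR-2, -3 and -4 and to 1492, 3568, 685 and 397 in GPC6-1, -2, -3 and -4. The 2 highest libraries, 3xCR-4 and GPC6-2, were also the 2 highest for Aqp1, and 5 of the 8 genes had their highest value in 3xCR-4. Col1a2, a chain of type I collagen and the most abundant of them, was at 169, 486 and 16800 in the 3xCR libraries and at 175, 984, 202 and 181 in the GPC6 libraries. Most of the sum of 28157 in 3xCR-4 came from Col1a2 and from Col1a1, the other chain of type I collagen, at 9756. Igf2, Slc6a20a and Slc6a13, also genes of meningeal fibroblasts, were lowest of the 3xCR libraries in 3xCR-4, with 115, 38.7 and 4.14 there against 338, 80.9 and 16.7 in 3xCR-3 and 511, 119 and 75.1 in 3xCR-2. The gene nearest to Aqp1 by the root mean square measure was Mmp9, a matrix metalloproteinase, at 0.30 log2 units, with 7.67, 23.3 and 916 in the 3xCR libraries and 26.3, 217, 15.1 and 21.6 in the GPC6 libraries. Next came Col1a2 at 0.57 and Twist1, a transcription factor of mesenchymal cells, at 0.63 (the genes nearest to Aqp1 and Enpp2 were looked up after their values were seen). The part of fibroblasts in the level of Aqp1 was not tested.

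For Enpp2, the 8 genes of mature oligodendrocytes summed to 55106, 76635 and 58737 normalized counts in 3xCR-2, -3 and -4 and to 90918, 92396, 21238 and 9750 in GPC6-1, -2, -3 and -4. Mbp, the myelin basic protein gene, was at 29841, 42635 and 36078 in the 3xCR libraries and at 44909, 42233, 9492 and 3784 in the GPC6 libraries. Enpp2 and Mbp were both highest in GPC6-1, and Enpp2 was lowest in GPC6-3, where Mbp was the second lowest. GPC6-4 broke this order, since it had the lowest Mbp but 5411 of Enpp2, the third highest. 3xCR-4 broke it too, since it had the second lowest Enpp2, 2355, but more Mbp than 3xCR-2, where Enpp2 was at 3983. The part of oligodendrocytes in the level of Enpp2 was not tested.

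**Figure D4:**
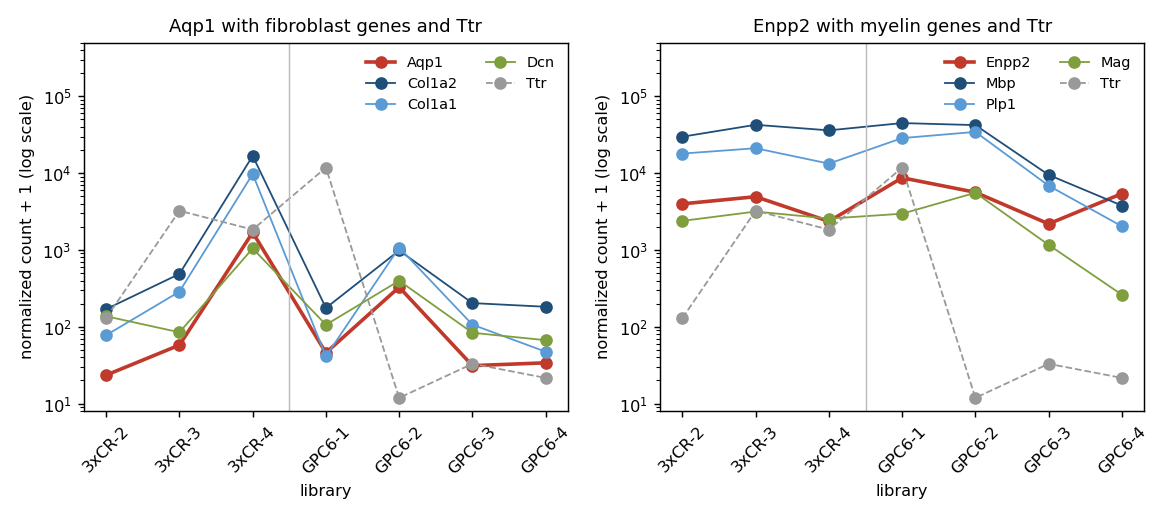
Normalized count + 1 (log scale) in the 7 libraries for Aqp1 with 3 fibroblast genes and Ttr (left) and for Enpp2 with 3 myelin genes and Ttr (right), lines joining the values of 1 gene. Aqp1 and the collagen genes both peak in 3xCR-4 and have a smaller rise in GPC6-2, and Enpp2 stays high in GPC6-4 where the myelin genes are at their lowest.

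The question set by the design was whether the tumors with GPC6 differ from 3xCR tumors. The groups were compared on log2(normalized count + 1) with limma across all 14782 genes with a mean of at least 10, and fold changes below are on that scale, on which low genes appear to change less than they do. None of the 9 members had groups that did not overlap, against 6.32% of all genes tested. By limma, 0 of the 14782 genes (0%) reached an adjusted p of 0.05 and 689 (4.66%) an unadjusted p of 0.05, and the members reached 0 in both. With edgeR on the recovered reads, 0 genes passed with adjustment and 991 (6.7%) without, and with DESeq2 4 genes (0.0211% of 18973) and 1853 (9.77%). No member passed with adjustment in either.

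The mean of the log values was lower in GPC6 for 8 of the 9 members and higher for Enpp2, with a median log2 fold change of -1.63 against -0.019 over all genes tested, of which 51.7% were lower. Ttr had a log2 fold change of -3.20 (SE 2.39, 95% interval -8.74 to 2.34, limma adjusted p = 0.738). Prlr was at -2.03 (SE 1.5, adjusted p = 0.735), Folr1 at -1.80 (SE 1.82, adjusted p = 0.783) and Otx2 at -1.65 (SE 1.49, adjusted p = 0.761). Slc4a5 was at -1.63 (SE 1.79), Sostdc1 at -1.45 (SE 1.04), Aqp1 at -1.06 (SE 1.49) and Clic6 at -0.68 (SE 1.32), with adjusted p between 0.732 and 0.885. Enpp2 was at 0.45 (SE 0.48, 95% interval -0.67 to 1.57, adjusted p = 0.799). The 95% intervals of all 9 members included 0. Apart from Enpp2, their lower limits lay between -8.74 (Ttr) and -3.73 (Clic6), so that large decreases are not excluded. Their upper limits lay between 0.95 (Sostdc1) and 2.51 (Slc4a5), so that increases are not excluded either.

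The direction depended on whether log values or linear values were averaged. The ratio of the mean normalized count in GPC6 to that in 3xCR was 1.71 for Ttr, 1.17 for Clic6, 1.04 for Otx2 and 1.36 for Slc4a5, all above 1 while their log2 fold changes were below 0. It was 0.809 for Folr1, 0.991 for Prlr, 0.345 for Sostdc1, 0.184 for Aqp1 and 1.46 for Enpp2. With edgeR and DESeq2, which compare means of counts, Ttr was at 0.77 and 0.78 on the log2 scale, and the median of the 9 members was at 0.0034 and 0.047.

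These values depended on single libraries, and those of Ttr, Prlr, Folr1, Slc4a5, Otx2 and Clic6 moved furthest down without GPC6-1. Without it, the limma log2 fold changes were -5.50 for Ttr, -3.37 for Prlr, -3.25 for Folr1, -3.22 for Slc4a5, -2.83 for Otx2, -2.10 for Sostdc1, -1.75 for Clic6, -0.91 for Aqp1 and 0.17 for Enpp2. Ttr, Prlr, Folr1, Slc4a5 and Otx2 were then lower with an unadjusted p under 0.05, against 1.8% of all genes. The gene filter was kept from all 7 libraries, and Otx2 and Slc4a5 pass it only with GPC6-1 counted. Since the members were chosen with the height of Ttr in GPC6-1 known, leaving out that library uses the value that chose them, and nothing is read from these counts or from those on overlap below. None passed with adjustment (limma adjusted p = 0.905 for each of the 5). The groups no longer overlapped for Ttr, Prlr and Slc4a5, all lower in GPC6, against 5.19% of all genes lower without overlap. Leaving out 3xCR-4 turned Aqp1 from -1.06 to 0.78, and Clic6 moved to 0.19 without 3xCR-3 and to 0.19 without GPC6-4. Without 3xCR-2, Sostdc1 was lower in GPC6 with an unadjusted p under 0.05, against 3.4% of all genes, and its groups did not overlap, against 10.6% of all genes. Without GPC6-3, Enpp2 was higher in GPC6 with no overlap, against 4.37% of all genes. When limma weighted each library by its spread around the group mean, 4 members (Ttr, Prlr, Sostdc1 and Slc4a5, all lower in GPC6) passed with adjustment, against 13.3% of all genes, and 7 without it, against 34.5%. That fit gave 3xCR-3 and GPC6-3 weights of 8.71 and 4.47 and every other library at most 0.849. GPC6-1 had the lowest weight, 0.301. The fit thus counted least the library whose height of Ttr was known when the members were chosen. Nothing is read from the counts of members in this fit. With the replicate number as a block, from which GPC6-1 drops out, 5 members were lower with an unadjusted p under 0.05 against 2.38% of all genes, and 0 with adjustment. This is the comparison without GPC6-1 again, with the same fold changes, and nothing further is read from it.

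**Figure D5:**
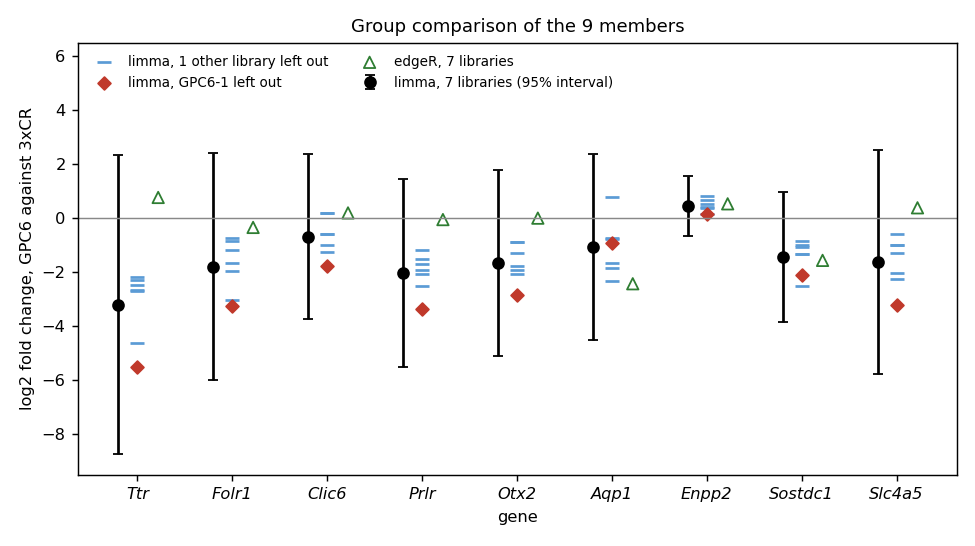
Log2 fold change of GPC6 against 3xCR for the 9 members, from limma on all 7 libraries (black points, 95% intervals as bars), with 1 other library left out (blue dashes), with GPC6-1 left out (red diamonds) and from edgeR (green triangles). All black intervals cross 0, and the red diamonds of Ttr, Folr1, Prlr, Otx2, Slc4a5 and Clic6 are the lowest points of their gene. The edgeR values of Ttr, Clic6, Slc4a5 and Enpp2 lie above 0, and that of Otx2 is 0.0034.

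Of the other choroid plexus genes, 23 passed the filter, of which 18 had a lower and 5 a higher mean of log values in GPC6, with a median log2 fold change of -0.64. With adjustment 0 of the 23 passed. Wfdc2 had the largest decrease of the list at -3.10 (SE 1.30, limma adjusted p = 0.730) and was the 1 gene of the 23 with an unadjusted p under 0.05, against 4.66% of all genes. Slc29a4 had the highest value at 0.62 (SE 0.53). Of the ependymal genes 8 of 10 had a lower mean of log values in GPC6, with a median of -0.34, and of the oligodendrocyte genes 7 of 8, with a median of -0.68, and 0 genes of either list had an unadjusted p under 0.05.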

How the data were processed

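Reads were aligned by the authors to mm10 with STAR 2.5.0a (version from the submitters' processing notes), counted on genes with Rsamtools and GenomicFeatures and normalized with DESeq2 1.20.0. The values the authors deposited are counts divided by 1 size factor per library, a linear normalized signal with no correction for gene length, and the strand setting of counting is not given in the sources used here. Of 19282 entries, 25 whose names had become dates (0.254% to 0.361% of reads) were left out. All values (100%) lay within 0.01 of a whole number of reads, so that reads were recovered. GENCODE for GRCm38 held 96.0% of the symbols.

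The main test was limma 3.58.1 (R 4.3.3) with a mean-variance trend on log2(normalized count + 1), two-sided, with Benjamini-Hochberg adjustment over all 14782 genes with a mean of at least 10. It was chosen because the values were deposited normalized. edgeR 4.0.16 (quasi-likelihood) and DESeq2 1.42.0 (Wald) were run on recovered reads. The fits were run on simulated counts drawn with the same dispersion for every gene and library. The real libraries differed in spread, so this checked the code and not the error rates on these data. Per-library intervals are exact at 95%. No 2 libraries were copies (chi-square of 47.1 to 247 per gene for each pair). The study calls its samples biological replicates.

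The members, lists and tests were chosen with earlier results of these data known. Genes named were all members, Gpc6, the 3 most abundant other choroid plexus genes and those of largest and smallest fold change, the 10 genes nearest to Ttr, and from each other list the most abundant gene and any whose highest library was at least 10 times the second. Kl, Cldn2 and Tmem72 fall under this rule as near genes. Col1a1, Igf2, Slc6a20a, Slc6a13, Mobp, Ermn, Apoa1, Rpe65, Steap1, Col8a1 and the genes nearest to Aqp1 were named after their values were seen. Pituitary genes were also followed, and their most abundant gene, Prl, had 44.4 normalized counts in GPC6-3 and at most 3.09 elsewhere. The 6 endothelial genes summed to 972 to 2967 in the 3xCR and 1499 to 2395 in the GPC6 libraries, led by Cldn5. Promoter sequences are from RefSeq.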

Additional observations from a re-analysis of the deposited data

Results flagged for a closer look

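In each gene and list sum reported for the 4 GPC6 libraries, the gap from the highest or lowest library to its nearest neighbor was divided by the range and compared with Dixon's 95% critical value for 4 samples. Chance exceeds it in about 1 of 20 groups. It was exceeded in 5 of the 49 genes and sums looked at, a count that supports nothing, since the members were chosen with the height of Ttr in GPC6-1 known, Tmem72 was named as the gene nearest to Ttr, and sums share genes. Ttr stood apart in GPC6-1 at 11813 normalized counts, and so did Slc4a5 at 102 and Tmem72 at 49.5 in the same library. Aqp1 stood apart in GPC6-2 at 327 normalized counts, and so did Col1a2 there at 984. The cause of these gaps was not tested.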

How the results depend on the processing

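The results were recomputed under 20 alternatives, 7 of which left out 1 library each. Of the fold changes of the 9 members, 159 kept their direction and their side of the threshold, 12 turned and 4 came to pass it. The median of the members was -2.83 to -0.97 with 1 library left out, and below 0 under every alternative except edgeR (0.0034) and DESeq2 (0.047).

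With edgeR and DESeq2 the log2 fold change turned to 0.77 and 0.78 for Ttr, 0.20 and 0.22 for Clic6, 0.0034 and 0.047 for Otx2, and 0.39 and 0.44 for Slc4a5. These tools compare means of counts rather than of log values. DESeq2 called 4 genes and no member, and it gave no p for Aqp1, Clic6 and Slc4a5. Weights per library called 1962 genes (13.3%), 4 of them members: Ttr at -5.91, Prlr at -2.60, Sostdc1 at -2.50 and Slc4a5 at -4.10 (limma adjusted p of 0.029, 0.043, 0.037 and 0.032). Enpp2 turned to -0.78. With weights, 7 members and 16 other choroid plexus genes had an unadjusted p under 0.05, against 34.5% of all genes. The weights were 8.71 for 3xCR-3 and 4.47 for GPC6-3, so that this fit rests mainly on those 2. The other 5 libraries had weights between 0.301 and 0.849, the lowest being that of GPC6-1. Since the height of Ttr in GPC6-1 was known when the members were chosen, nothing is read from these counts of members.

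With 1 library left out, the fold change ranged from -5.50 to -2.18 for Ttr, -3.25 to -0.74 for Folr1, -1.75 to 0.19 for Clic6, -3.37 to -1.18 for Prlr, -2.83 to -0.87 for Otx2, -2.31 to 0.78 for Aqp1 (0.78 without 3xCR-4), 0.15 to 0.84 for Enpp2, -2.52 to -0.85 for Sostdc1 and -3.22 to -0.59 for Slc4a5. Between 0 and 5 members had an unadjusted p under 0.05 (5 without GPC6-1, and Sostdc1 alone without 3xCR-2), and 0 to 3 other choroid plexus genes. Between 0 and 3 members had groups without overlap: Ttr, Prlr and Slc4a5 without GPC6-1, Sostdc1 without 3xCR-2 and Enpp2, higher in GPC6, without GPC6-3. Of the other choroid plexus genes, 0 had an unadjusted p under 0.05 with voom, with a pseudocount of 5 and with a minimum mean of 50, against 1 in the main comparison.

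Replicates 2, 3 and 4 carry the same numbers in both groups. Deviations of same-numbered libraries correlated at -0.194, 0.118 and 0.296. 3xCR-4 correlated best with its own number, and 3xCR-2 and 3xCR-3 did not. These correlations cannot decide whether libraries of the same number belong together. With the number as a replicate block, GPC6-1 has no partner and drops out. The fold changes were then those without GPC6-1, so that this is no separate check. In it, 5 members and 6 other choroid plexus genes had an unadjusted p under 0.05, and no gene passed with adjustment (limma adjusted p = 0.809 for Ttr).

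Depth limits Otx2, Folr1, Prlr and Slc4a5 most, since each had 0 or 1 read in GPC6-2 and GPC6-4. Libraries scaled to the same total or the same upper quartile moved the median of all genes by 0.047 and -0.045 on the log2 scale. A minimum mean of 50 left Ttr, Clic6, Aqp1 and Enpp2 to test.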
